A study of Bos taurus with 6 samples.

Results

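Cyclins are the regulatory subunits of the cyclin-dependent kinases (CDKs) and set the order of the cell cycle. D-type cyclins respond to growth factors and act with CDK4 and CDK6 in G1, E-type cyclins act with CDK2 at the entry into S phase, cyclin A2 acts with CDK2 and CDK1 from S phase into G2, and B-type cyclins act with CDK1 in mitosis. D-type transcripts depend mainly on mitogen signals, whereas the transcripts of the E-type cyclins rise under E2F factors in late G1 and those of A2, B1 and B2 rise under MYBL2 and FOXM1 later in the cycle. The 8 genes described here are the D-type cyclins CCND1, CCND2 and CCND3, the E-type cyclins CCNE1 and CCNE2, and CCNA2, CCNB1 and CCNB2. They were chosen by name, with earlier results of these data known, and each has 1 entry among the 32183 genes listed.

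The study asked how butyrate, a short-chain fatty acid made in the rumen that inhibits histone deacetylases, changes gene expression in rumen epithelial primary cells (REPC). The cells all came from 1 animal, a male Holstein calf aged 2 weeks, whose diet had been milk replacer alone. RNA was sequenced from 3 samples taken 24 h after 5 mM butyrate was added to the medium and from 3 control samples, called cultures here. The control medium and its time are not stated in the labels, nor is it stated there whether the 3 samples of a group are separate cultures. The paper calls them biological replicates. The RNA samples hold no cells of another animal, so the p-values below speak of the spread between samples of 1 calf. Values are FPKM, fragments scaled by transcript length and by library size, which allow levels to be set side by side between genes.

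Total FPKM ran from 678035 to 681912 in the control cultures and from 619401 to 629037 in the butyrate cultures. Fold changes were computed on log2(FPKM + 0.1) and tested with limma over 15813 genes whose mean FPKM reached 0.1, a filter that all 8 cyclins passed. A gene counted as changed when its p, adjusted by Benjamini-Hochberg (BH), was under 0.05, and the study's own threshold for a differentially expressed gene was a Bonferroni-corrected p under 0.05 with a log2 fold change beyond 2. The median log2 fold change of all genes tested was 0.10, and it was 0.23 with FPKM rescaled to an equal sum per culture and -0.025 after quantile normalization. Epithelial keratins were present, with KRT5 at a mean FPKM of 401 in control and KRT8 at 1380, and CDH5 and PTPRC, defining markers of endothelial cells and leukocytes, were each listed at 0 in every culture. The fibroblast markers VIM and COL1A1 were also present, with means of 2464 and 1149. Summed FPKM of the 9 epithelial markers, of which 6 were higher and 1 was lower, lay between 2426 and 2535 in control and between 5047 and 5130 after butyrate, that of the 9 fibroblast markers, of which all 8 tested were higher, between 5501 and 5777 and between 8417 and 9138, and that of the 5 smooth muscle markers, of which 4 were lower and 1 was higher, between 6468 and 6796 and between 2849 and 3456. Summed FPKM of the 4 endothelial markers lay between 1.95 and 2.07 in control and between 6.48 and 8.43 after butyrate, and both of those tested, PECAM1 and VWF, were higher. For the 5 leukocyte markers the sum lay between 5.12 and 7.15 in control and between 7.43 and 9.43 after butyrate, with 1 of 2 tested genes higher and 1 not called. Beside these marker counts, 32.5% of all genes tested were called higher and 25.9% lower. The part of any marker shift in the results below was not tested.

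The falls were largest for the cyclins that act from S phase into mitosis. The transcripts of A2, B1 and B2 fell to about 2% of their control level, those of CCND1, CCND2 and CCNE2 fell by less than the study's threshold, CCND3 did not pass the test, and CCNE1 was slightly higher, a call that did not hold in each fit without 1 culture. In 7 of the 8 genes the 3 butyrate values did not overlap the 3 control values, which was the case for 65.0% of all genes tested. Of these 7 genes, 6 were lower after butyrate, against 28.9% of all genes, and 1 was higher, against 36.1%. Under the limma test 7 cyclins were called, where 58.4% of all genes were. Of them 6 were lower, where 25.9% of all genes were called lower, and 1 was higher, where 32.5% of all genes were called higher. The study's thresholds were applied here to the limma test, whereas the study itself tested with Cufflinks. Past these thresholds there were 3 cyclins that fell, CCNA2, CCNB1 and CCNB2, against 1.51% of all genes, and 0 that rose, against 2.46%. In a bulk sample, fewer cells in a phase and less RNA per cell cannot be told apart.

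**Figure D1:**
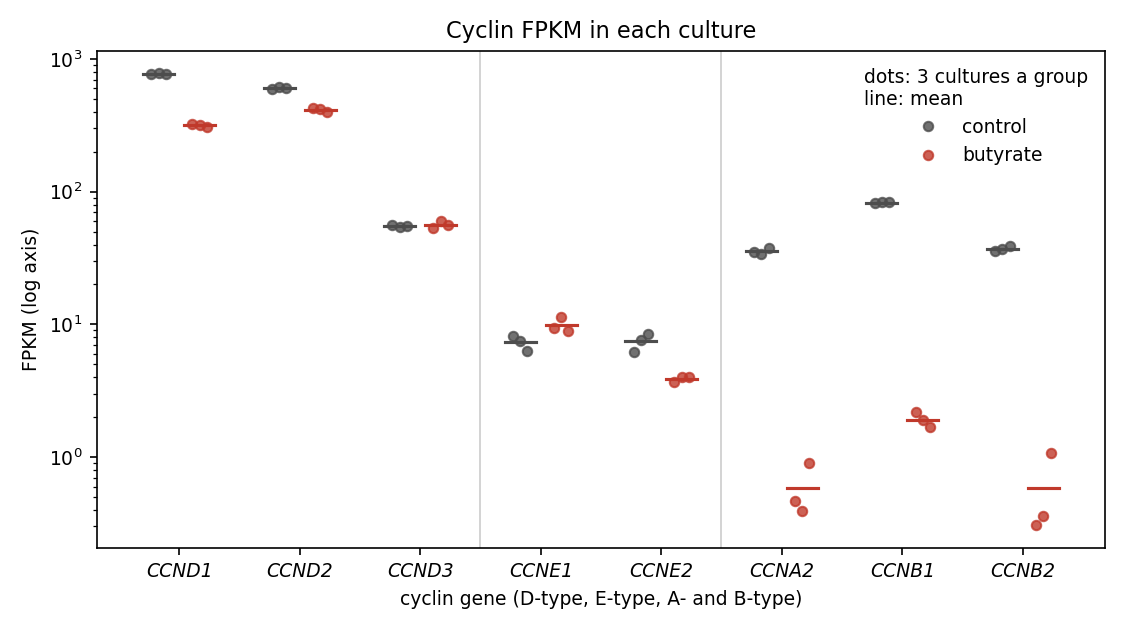
FPKM of the 8 cyclins in each culture on a log axis, with 3 control cultures in grey and 3 butyrate cultures in red and a line at each group mean. The groups overlap for CCND3, lie close for CCND2, CCNE1 and CCNE2, and lie farthest apart for CCNA2, CCNB1 and CCNB2.

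CCND1 encodes cyclin D1 and lies on chromosome 29 from 47544380 to 47553842 in UMD3.1. Its FPKM was 769, 780 and 775 in control cultures 1 to 3 and 324, 316 and 307 in butyrate cultures 1 to 3. Each butyrate culture was far below each control culture, and the replicates of a group lay within a few percent of each other. The mean went from 775 ± 5.81 (SD, n = 3) to 316 ± 8.48 (SD, n = 3), which is 40.8% of control. The log2 fold change came to -1.29 (SE 0.035, limma, BH-adjusted p = 4.5e-08). The entry of ORAOV1 spans that position, at a mean of 14.1 FPKM in control and 12.1 FPKM after butyrate, and did not pass the test.

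CCND2 encodes cyclin D2, and its gene lies on chromosome 5 from 106253891 to 106276819. Control cultures 1 to 3 had an FPKM of 591, 618 and 605, and butyrate cultures 1 to 3 had 430, 417 and 402. The fall was clear of the replicate spread but smaller than that of CCND1. CCND2 kept 68.9% of its control mean, and the log2 fold change was -0.54 (SE 0.039, limma, BH-adjusted p = 5.9e-06). After quantile normalization its log2 fold change was -0.25, and it was still called lower. The unnamed entry LOC104972567 overlaps the end of that position and fell from a mean FPKM of 0.975 to 0.0819, so its reads, whichever strand they came from, were few beside those of CCND2.

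CCND3, the gene of cyclin D3, lies on chromosome 23 from 15707545 to 15802152. It had an FPKM of 56.2, 54.6 and 55.5 in control and of 53.4, 59.8 and 56.1 after butyrate. The control values lie within the range of the butyrate values. The log2 fold change was 0.025, with a 95% interval from -0.11 to 0.16 (limma, BH-adjusted p = 0.731), and that interval leaves out a change of the size seen in CCND2. With FPKM rescaled to an equal sum per culture, CCND3 passed the test at a log2 fold change of 0.15 (limma, BH-adjusted p = 0.0494). The median of all genes tested was 0.23 at that setting. Without butyrate culture 2 the sign of CCND3 turned, at -0.017.

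The unequal falls changed the make-up of the D-type transcripts. CCND1 stood above CCND2 in each control culture, with a ratio of CCND1 to CCND2 of 1.30, 1.26 and 1.28, and below it in each butyrate culture, with ratios of 0.753, 0.759 and 0.764. The difference of that log2 ratio was -0.76 (p = 0.1 in a two-sided exact permutation test, the lowest that 3 cultures against 3 can give). CCND1 made up 54.0% ± 0.277 (SD, n = 3) of the summed D-type FPKM in control and 40.0% ± 0.129 (SD, n = 3) after butyrate. CCND2 went from 42.1% to 52.8% and CCND3 from 3.86% to 7.16% of that sum. Such ratios were compared for 5 pairs within a class, CCND1 with CCND3, CCND2 with CCND3, CCNE1 with CCNE2 and CCNB1 with CCNB2 being the others, and the exact permutation p adjusted over the 5 pairs was 0.125 for each pair but CCNB1 with CCNB2. The summed D-type FPKM was 1435 ± 18.1 (SD, n = 3) in control and 789 ± 21.4 (SD, n = 3) after butyrate.

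CCNE1 encodes cyclin E1 and lies on chromosome 18 from 40565286 to 40575333. Its FPKM was 8.24, 7.44 and 6.29 in control and 9.40, 11.3 and 8.89 after butyrate. The lowest butyrate culture was just above the highest control culture. The mean was 7.32 ± 0.981 (SD, n = 3) in control and 9.87 ± 1.28 (SD, n = 3) after butyrate, and the log2 fold change was 0.43 (SE 0.14, limma, BH-adjusted p = 0.0258). That call was lost in 4 of the 6 fits that left out a culture, where limma gave a BH-adjusted p of 0.0610 without butyrate culture 1, 0.1004 without butyrate culture 2, 0.0619 without control culture 2 and 0.0892 without control culture 3. It was also lost without the mean-variance trend (limma, BH-adjusted p = 0.0519).

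CCNE2, the gene of cyclin E2, lies on chromosome 14 from 71807750 to 71818065. It had an FPKM of 6.17, 7.68 and 8.48 in control and of 3.71, 4.0 and 4.0 after butyrate, so that the butyrate cultures were alike and all below the controls. CCNE2 kept 52.5% of its control mean, and the log2 fold change was -0.90 (SE 0.14, limma, BH-adjusted p = 0.000644). The entry of INTS8 spans that position, at a mean of 19.1 FPKM in control and 19.2 FPKM after butyrate. LOC107131206 overlaps its start, at 14.0 and 14.9 FPKM. Neither passed the test (limma, BH-adjusted p = 0.971 and 0.425). Both stood above CCNE2, and whether any of their reads were counted for CCNE2 was not tested.

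The log2 fold changes of the E-type cyclins thus had opposite signs, while the ranges of their sum overlapped. Of the 2 changes, only the fall of CCNE2 kept its call in each fit. Control cultures had a ratio of CCNE1 to CCNE2 of 1.34, 0.968 and 0.742, and butyrate cultures had ratios of 2.53, 2.83 and 2.22. The log2 ratio was 1.35 higher after butyrate, with no overlap between the groups (p = 0.1 in a two-sided exact permutation test, again the smallest possible). Summed E-type FPKM was 14.4, 15.1 and 14.8 in control and 13.1, 15.3 and 12.9 after butyrate. CCNE1 made up 49.7% ± 7.32 (SD, n = 3) of that sum in control and 71.5% ± 2.46 (SD, n = 3) after butyrate.

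**Figure D2:**
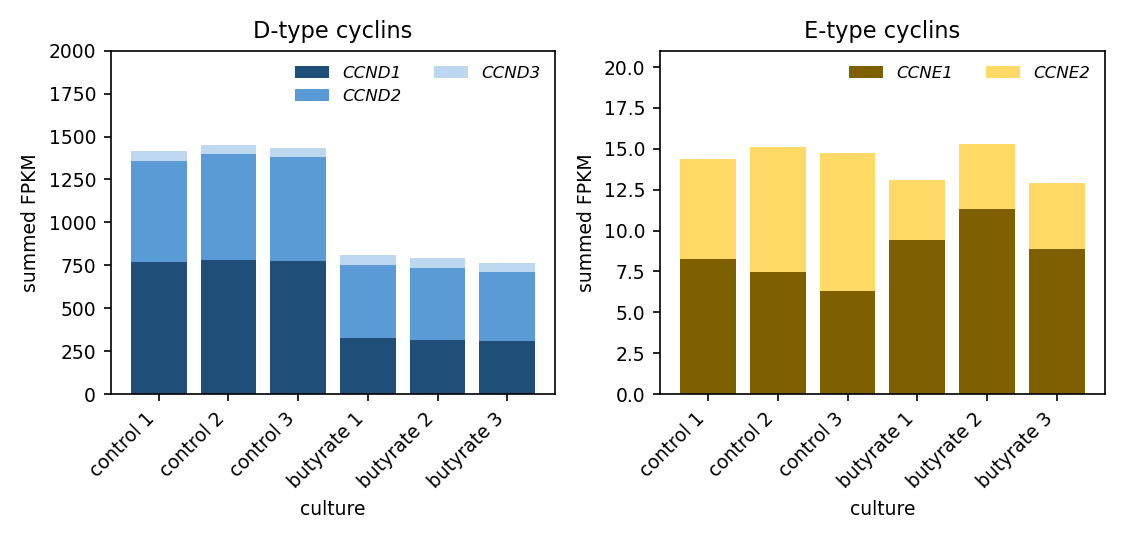
Summed FPKM of the D-type cyclins (left) and of the E-type cyclins (right) in each of the 6 cultures, with bars starting at 0 and divided by gene. The D-type sum lies between 1416 and 1452 in control and between 766 and 808 after butyrate, whereas the E-type sums overlap and the share of CCNE1 is larger in each butyrate culture.

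CCNA2 encodes cyclin A2 and lies on chromosome 6 from 3412030 to 3419198. Control cultures 1 to 3 had an FPKM of 35.3, 34.0 and 37.5, and butyrate cultures 1 to 3 had 0.467, 0.393 and 0.908. Butyrate culture 3 was the highest of its group, yet each butyrate value was a small part of each control value. The mean was 35.6 ± 1.77 (SD, n = 3) in control and 0.589 ± 0.279 (SD, n = 3) after butyrate, 1.66% of control. Its log2 fold change of -5.76, with a standard error of 0.25, was the number 6 fall among the 15813 genes (limma, BH-adjusted p = 3.4e-07, Bonferroni-adjusted p = 0.000102).

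CCNB1, the gene of cyclin B1, lies on chromosome 20 from 10431452 to 10441126. It was the most abundant of the mitotic cyclins, with an FPKM of 81.6, 83.0 and 83.0 in control and of 2.17, 1.90 and 1.67 after butyrate. The replicates were closer to each other than those of CCNA2 and CCNB2 after butyrate. The mean fell to 2.32% of control, and the log2 fold change was -5.37 (SE 0.10, limma, Bonferroni-adjusted p = 1.3e-07). It was the number 15 fall among the genes tested.

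CCNB2 encodes cyclin B2 and lies on chromosome 10 from 51247755 to 51272760. Its FPKM was 35.98, 37.0 and 38.7 in control and 0.306, 0.361 and 1.08 after butyrate, where culture 3 was again the highest. The log2 fold change of CCNB2 was -5.95 (SE 0.35), the number 4 fall among the genes tested (limma, Bonferroni-adjusted p = 0.00152). With 1 FPKM added in place of 0.1, the log2 fold changes of CCNA2, CCNB1 and CCNB2 were -4.54, -4.84 and -4.63, so their order changed. CCNB2 missed the Bonferroni threshold in 5 of the 6 fits that left out a culture, all but the one without butyrate culture 3, with a Bonferroni-adjusted p from limma of 0.310 at most. It missed it also without the trend (limma, Bonferroni-adjusted p = 0.287) and without the filter on low values (limma, Bonferroni-adjusted p = 0.0521), while the BH call held in each of these fits. For B1 and B2 the groups overlapped in their ratio, which was 2.27, 2.24 and 2.15 in control and 7.09, 5.26 and 1.55 after butyrate (exact permutation test, two-sided, p = 0.4), so the falls of the B-type cyclins were not told apart.

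The depth behind the low values is small. The tables hold no counts, but the deposited confidence bounds, taken as 2 standard deviations, imply between 386 and 411 effective fragments for CCNB2 in a control culture and between 2.57 and 12.1 in a butyrate culture. For CCNA2 the range was 538 to 591 in control and 6.59 to 15.9 after butyrate, and for CCNB1 it was 1162 to 1221 in control and 22.8 or more after butyrate. In butyrate cultures 1 and 2 the deposited lower bound of CCNB2 was 0, so its remaining transcript was at the limit of detection there. CCND1 and CCND2 had at least 1397 and 1843 effective fragments in each culture, CCND3 at least 581, CCNE1 at least 133 and CCNE2 at least 114. These numbers are approximations, each drawn from the bounds of a single culture, and do not cover the spread between cultures.

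**Figure D3:**
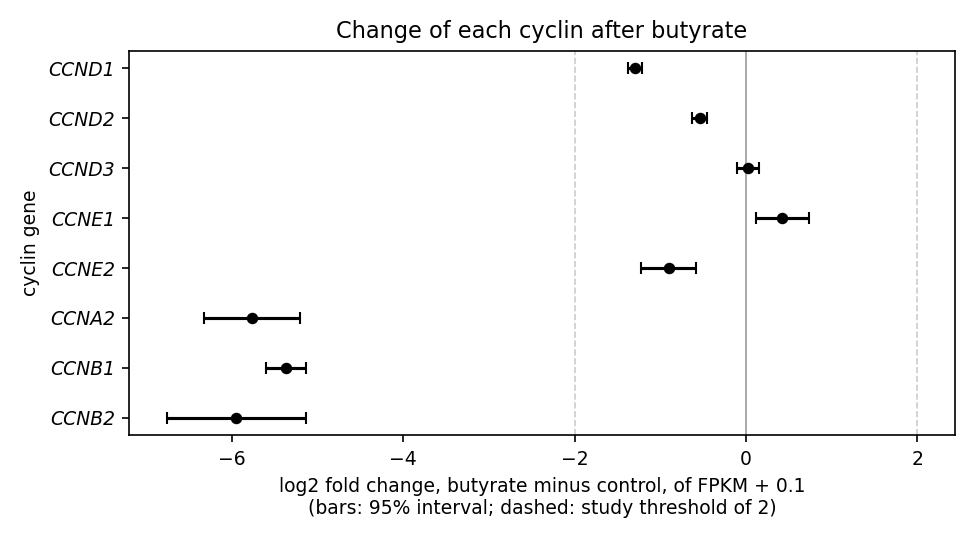
Log2 fold change of each cyclin, butyrate minus control, on log2(FPKM + 0.1), with bars for the 95% interval from limma and dashed lines at the study's fold threshold of 2. CCNA2, CCNB1 and CCNB2 lie between -5.95 and -5.37, while the other 5 lie between -1.29 and 0.43.

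Set against each other, the D-type cyclins had a mean log2 fold change 2.91 above that of the 5 E-, A- and B-type cyclins. In each culture the mean log2(FPKM + 0.1) of the D-type cyclins was above that of the others, by 3.73, 3.71 and 3.68 in control and by 6.76, 6.76 and 6.32 after butyrate. No butyrate culture came near a control culture in this difference, which is a description and was not tested. The contrast is not one of D-type against all others, since CCNE1 and CCNE2, at 0.43 and -0.90, lay within or near the range of the D-type cyclins, from -1.29 to 0.025. Summed FPKM of A2, B1 and B2 went from 155 ± 3.33 (SD, n = 3) to 3.09 ± 0.517 (SD, n = 3), and that of all 8 genes from 1605 to 806. D-type transcripts made up 89.4% ± 0.190 (SD, n = 3) of the 8 genes' summed FPKM in control and 97.9% ± 0.134 (SD, n = 3) after butyrate, and the E-type share of the E-, A- and B-type sum went from 8.68% to 81.6%.

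The order of the levels changed with it. In control it was CCND1, CCND2, CCNB1, CCND3, CCNB2, CCNA2, CCNE2 and CCNE1, where CCNB2 and CCNA2 overlapped in range and so did CCNE2 and CCNE1. After butyrate it was CCND2, CCND1, CCND3, CCNE1, CCNE2, CCNB1, CCNA2 and CCNB2, and only CCNA2 and CCNB2 overlapped. By percentile among the genes tested, CCND1 and CCND2 stood at 99.1 and 98.8 in control and still at 97.8 and 98.5 after butyrate. CCNB1 went from percentile 90.7 to 31.7, CCNA2 from 81.5 to 16.5 and CCNB2 from 82.0 to 16.4.

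The CDKs that these cyclins bind did not all fall with them. CDK1, the kinase of A2 and the B-type cyclins, stood at 32.5 ± 1.39 FPKM (SD, n = 3) in control and at 2.62 ± 0.708 FPKM (SD, n = 3) after butyrate, a log2 fold change of -3.62 (limma, BH-adjusted p = 8.1e-07). CDK2 and CDK4 fell by less, with log2 fold changes of -0.92 and -0.62. CDK6, at a mean of 30.4 FPKM in control and 33.8 FPKM after butyrate, did not pass the test (limma, BH-adjusted p = 0.477). Of the 13 CDKs and activators tested, 11 were lower, 0 were higher and 2 were not called, where 25.9% of all genes tested were called lower and 32.5% higher. The median log2 fold change of the list was -1.11. CKS2, a small subunit that binds CDKs, fell most, with a log2 fold change of -4.67.

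Of the 8 CDK inhibitor genes, 5 were higher and 3 lower, beside 32.5% higher and 25.9% lower among all genes tested. The median of these inhibitors was 0.50 on the log2 scale. CDKN1C, which encodes p57, rose most, from a mean FPKM of 6.40 to 32.5 and by 2.34 on the log2 scale. CDKN1A, which encodes p21, was already abundant at 210 ± 2.93 (SD, n = 3) and rose to 284 ± 8.78 (SD, n = 3), a log2 fold change of 0.43 (limma, BH-adjusted p = 2.5e-05). CDKN3, a phosphatase that acts on CDKs and itself a gene expressed in cycling cells, fell most in this list, by 2.62 on the log2 scale. CDKN2C and CDKN1B were also lower, with log2 fold changes of -1.79 and -0.44 (limma, BH-adjusted p = 2.2e-06 and 0.0419). The number of lower inhibitor genes was 2 or 3 when single cultures were dropped.

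Among the RB, E2F and MuvB factors, which control cyclin transcription, 13 of 21 tested genes were lower, 3 were higher and 5 were not called, against 25.9% lower and 32.5% higher among all genes. MYBL2 had a mean FPKM of 69.7 ± 7.16 (SD, n = 3) in control and 1.75 ± 0.269 (SD, n = 3) after butyrate. FOXM1 had an FPKM of 2.46, 3.24 and 3.45 in control, and after butyrate it was listed at 0 in culture 1 and at 0.126 and 0.0966 in cultures 2 and 3. Both act on A2, B1 and B2, and the log2 fold changes of MYBL2 and FOXM1 were -5.24 and -4.25. The butyrate values of FOXM1 lie near the added 0.1 FPKM, which limits its log2 fold change. In FPKM, MYBL2 kept 2.51% and FOXM1 2.43% of the control mean. E2F1, an activator of the E-type genes, fell by 3.16 on the log2 scale. Its butyrate values were low, at 0.238, 0.560 and 0.240 FPKM, and E2F1 missed the study's Bonferroni threshold (limma, Bonferroni-adjusted p = 0.126). E2F5, which works with the p130 pocket protein as a repressor, rose most in this list, at 0.54. The median of the list was -0.69, and 1 gene of it was called higher in place of 3 without butyrate culture 1 or without control culture 3.

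Of the 17 mitogen-responsive factors tested upstream of the D-type cyclins, 8 were higher, 4 lower and 5 not called, with a median log2 fold change of 0.24. Among all genes 32.5% were higher and 25.9% lower. MYC stood at 95.3 ± 5.16 FPKM (SD, n = 3) in control and at 58.8 ± 9.52 FPKM (SD, n = 3) after butyrate, a log2 fold change of -0.71 (limma, BH-adjusted p = 0.000461). FOSL1, an AP-1 subunit, fell most, by 2.88 on the log2 scale, and EGR1, an immediate early factor, rose most, at 1.80.

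Cyclin proteins are removed by ubiquitination, and 16 of the 28 entries tested in that list were lower, 4 higher and 8 not called, where 25.9% of all genes were lower and 32.5% higher. The median of that list was -0.37. The largest fall was that of CDC20, which directs the anaphase-promoting complex to A- and B-type cyclins, from 77.8 ± 3.02 FPKM (SD, n = 3) to 1.24 ± 0.274 FPKM (SD, n = 3), at a log2 fold change of -5.89. FBXO31, an F-box protein that binds cyclin D1, rose most, at 0.73. ANAPC2 has 2 entries in the tables, of which 1 was higher and 1 was not called, so its value is uncertain.

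Of the 17 other cyclins tested, 4 were higher, 8 lower and 5 not called, set against 32.5% higher and 25.9% lower over all genes. Their median log2 fold change was -0.27. CCNF, a cyclin with an F-box that peaks in G2, fell most, from a mean FPKM of 9.61 to 0.414 and by 4.29 on the log2 scale. CCNI, an atypical cyclin with no fixed role in cell cycle phases, rose most, from 28.5 to 77.8 FPKM, a log2 fold change of 1.44. CCNA1, CCNI2 and CCNJL were too low to be tested.

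All 12 S phase genes and all 12 G2 and M phase genes were lower, where 25.9% of all genes tested were called lower. These lists, like the others, were written with earlier results of these data known, so the counts are a description. The median log2 fold change was -3.13 for the S phase genes and -4.31 for the G2 and M phase genes, against 0.10 for all genes tested. RRM2, a subunit of ribonucleotide reductase, fell most in the first list, by 4.79 on the log2 scale, and PLK1, a mitotic kinase, in the second, with a log2 fold change of -5.40. MKI67, a marker of cycling cells, had an FPKM of 4.26, 3.83 and 3.85 in control and of 0.182, 0.0280 and 0.112 after butyrate. CCNA2, CCNB1 and CCNB2 lay below the median of the G2 and M phase genes, and CCNE2, at -0.90, lay above each of the 12 S phase genes, of which SLBP, at -0.997, changed least. No test of these differences was made.

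**Figure D4:**
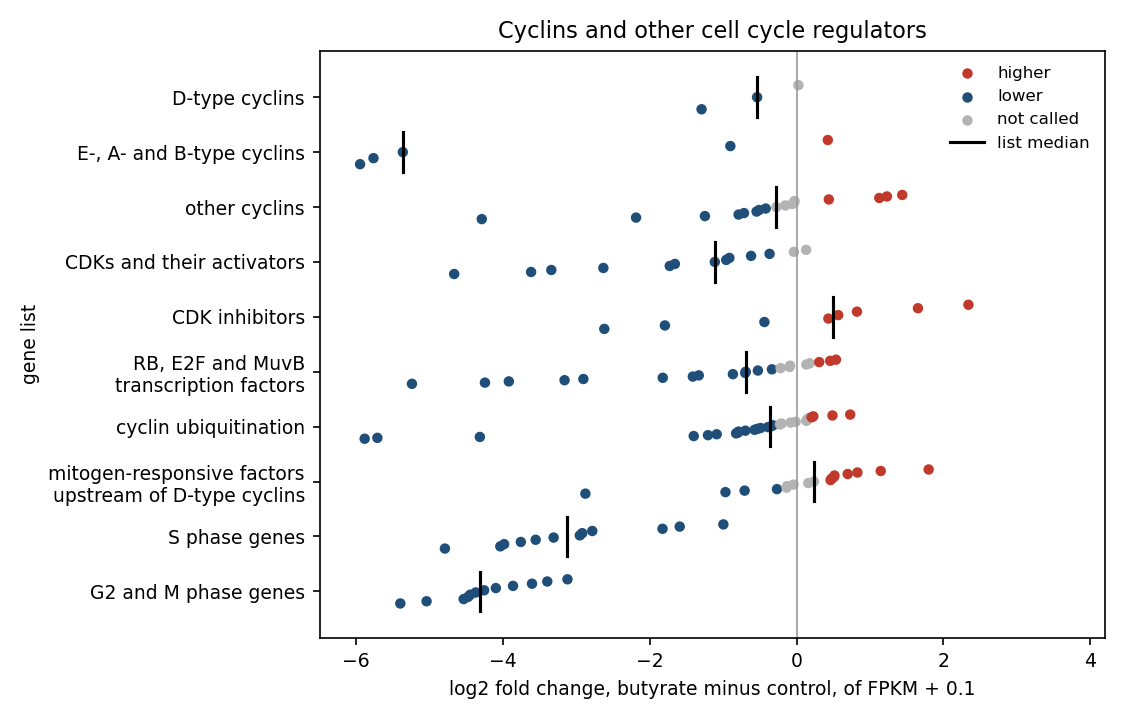
Log2 fold change of each tested gene, butyrate minus control, by gene list, with red for genes called higher, blue for genes called lower, grey for genes not called and a black line at the list median. With 0.1 FPKM added, the 12 G2 and M phase genes lie between -5.40 and -3.12. CCNB1 lies inside that range at -5.37, and CCNA2 and CCNB2 lie below it. With 1 FPKM added, CCNA2, CCNB1 and CCNB2 were at -4.54, -4.84 and -4.63, in another order. The D-type and E-type cyclins lie between -1.29 and 0.43.

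By Pearson's r of log2(FPKM + 0.1) over the 6 cultures, among 11039 named genes whose mean FPKM reached 1, the most similar gene was ATP5G1 for CCND1, NUPL2 for CCND2, LGALS8 for CCND3, DPT for CCNE1, COG4 for CCNE2, MSRB1 for CCNA2, MRPL18 for CCNB1 and TSR1 for CCNB2. The values of r lay between 0.981 for CCND3 and 0.9999 for CCNA2. The cultures form 2 groups, so r mostly records a shift between groups, whatever its size, and 736 genes had an r above 0.99 with CCND1. MSRB1, for example, had a log2 fold change of -1.51, much smaller than that of CCNA2.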

How the data were processed

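RNA from 6 rumen epithelial cell cultures was measured, 3 per group, grouped by the treatment label. Per the methods and the submitters' processing notes, the authors trimmed reads with Trim Galore 0.4.1, aligned them with STAR to UMD3.1, kept uniquely mapped reads and deposited gene FPKM with confidence bounds from Cufflinks (versions of STAR and Cufflinks, and strand settings, are not given in the sources used here). Only uniquely mapped reads were used, so reads shared with near-identical copies are missing. FPKM is relative to the library, and the tables hold no counts, so no count test was run.

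The tables were joined by position, 2 genes with a failed estimate (FOSL2, TNC) were left out, and log2(FPKM + 0.1) of genes whose mean FPKM reached 0.1 was tested, under R 4.3.3, with limma 3.58.1 (trended prior variance, no covariate, Benjamini-Hochberg adjustment over all genes tested), a fit tested on simulated data. Single ratios were compared by exact permutation in scipy 1.17.1. Starts are given 1-based. Members and lists were chosen with earlier results of these data known. The text names the 8 cyclins, 11 genes fixed by name and the most similar gene per cyclin. It also names the called gene with the largest rise and fall in each list. Other genes named (SLBP, ANAPC2, CDKN2C, CDKN1B, genes too low to test, overlapping entries and markers) were chosen after their values were seen. Same-numbered cultures had correlations of deviations of 0.0228, -0.00431 and 0.00177, so the numbers were not taken as pairs. Alternatives were other pseudocounts, filters and scalings, no trend, a replicate block and each culture left out. Promoter motifs were not analysed here.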

Additional observations from a re-analysis of the deposited data

How the results depend on the processing

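The falls of CCND1, CCND2, CCNE2, CCNA2, CCNB1 and CCNB2 kept their direction and their call in each of the 14 alternative fits. The number of cyclins called higher, 1 (CCNE1), was 0 without the trend and 2 with FPKM rescaled to an equal sum per culture, where CCND3 was added, and it lay between 0 and 1 when single replicates were dropped. The log2 fold change of CCND3 then lay between -0.017, without butyrate replicate 2, and 0.064. The difference of 2.91 between D-type and the other cyclins became 2.28 with a pseudocount of 1 and 3.30 by quantile normalization. The cyclins past the study's thresholds numbered 2 or 3 when single replicates were dropped, CCNB2 being the one that was lost, and numbered 4 with a log2 fold change beyond 1, where CCND1 was added. With the replicate block, 6 cyclins were lower, 1 was higher and 3 were past the study's thresholds, as without it. Of the genes in the pathway lists, 24 were higher and 79 lower, against 20 to 22 and 73 to 78 with 1 culture fewer. The cause of these shifts was not tested. The log2 fold changes of CCNA2 and CCNB2 lay between -6.09 and -4.54 and between -6.43 and -4.63 over the fits, the smallest falls with a pseudocount of 1. As few as 2.57 effective fragments stood behind a CCNB2 value after butyrate, and as few as 6.59 behind one of CCNA2.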
